A study of Homo sapiens with 3 samples.

Results

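Interferon beta (IFNB1), the chemokines CXCL10, CXCL11, CCL5, CXCL8 and CCL2, and the inflammatory cytokines IL6 and TNF were examined in a human cell line transfected with a CRISPR transcriptional activator. These 8 genes are secreted signals of the early antiviral and inflammatory response. They were taken by gene symbol, which gave 11 probe sets of the 19070 with 1 gene symbol and 8 genes of the 11963 measured. The genes were picked with earlier results of these arrays in view, so their levels are described here and not tested.

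The cells were HEK293T, a line derived from human embryonic kidney that expresses a viral T antigen. All 3 samples were transfected by Fugene HD with dCas9VP160, in which a Cas9 that cannot cut DNA is fused to the activator VP160, and they differed in the guide RNA. The sgTetOmut sample carried a mutated form of sgTetO that serves as a control with no target, the sgTetO sample a guide against the TetO promoter, a bacterial operator element, and the sgIL1RN1~3 sample guides against the promoter of human IL1RN. Each guide was measured on 1 array, so no value has a replicate error, no p-value is given, and the time between transfection and harvest is not given in the sources used here. Guide, transfection, RNA preparation and array cannot be told apart, and in a bulk sample neither can strong expression in few cells and weak expression in many.

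When a cell detects foreign nucleic acid, sensor proteins signal through adaptors and kinases to the transcription factors IRF3, IRF7 and NF-kB, which bind side by side at the IFNB1 promoter. Secreted interferon beta then acts through its receptor, IFNAR1 with IFNAR2, to switch on the interferon response genes. CXCL10, CXCL11 and CCL5 attract T cells and can be induced by IRF factors and by NF-kB, whereas CXCL8, CCL2, IL6 and TNF are known chiefly as NF-kB and AP-1 targets.

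Values are deposited log2 intensities, in which 1 unit is a 2-fold difference. As a background scale, the highest of 27 probe sets for Bacillus subtilis transcripts, which human cells lack, was 3.29 on sgTetOmut, 3.40 on sgTetO and 3.40 on sgIL1RN1~3. A set at or under that value is called not above background on that array, and a fold over such a set is a bound, taken from that level and written "at least". A set was counted as different when 2 arrays lay at least 2-fold apart after values under background had been raised to it. On sgTetOmut 8 of the 11 member sets were above background (73.9% of all sets), on sgTetO 4 (71.7%) and on sgIL1RN1~3 3 (72.5%). The 3 sets above background on every array were those of CCL5 (204655_at), CXCL8 (202859_x_at) and IL6, and 3 sets were above it on none, namely CCL2 and the further sets of CXCL8 and CXCL11.

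IFNB1, CXCL10, CXCL11 and CCL5 were at least 2-fold higher on sgTetOmut than on either other array (4 of 11 sets, against 0.278% of all sets). CXCL8 (202859_x_at) and IL6 were less than 2-fold apart, and CCL2 was not above background. TNF was above background on sgTetOmut alone, and its bound of at least 1.09-fold did not reach the limit. By any amount, sgTetOmut was the highest of the 3 arrays for 9 of the 11 sets, against 27.6% of all sets, though 2 of these 9, of CXCL11 and CCL2, were not above background on any array. With sgTetO, 4 of the 11 member sets were at least 2-fold lower than with sgTetOmut, against 0.299% of all sets, and 0 were higher, against 0.0105%. With sgIL1RN1~3, 4 of the 11 were lower than with sgTetOmut, against 0.372% of all sets, and 0 were higher, against 0.105%. These comparisons share the sgTetOmut array, so they are not independent of each other, and because the genes were picked with these values known the shares are given as background and nothing is read from them. Between sgIL1RN1~3 and sgTetO 0 member sets were 2-fold apart, a count near the 0.163% of all sets in each direction. Of the 11 sets, 7 were at background on both of these arrays and so had no difference to count. The member furthest apart as deposited differed by 0.15 log2 units.

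IFNB1, the interferon that cells of many types release first on infection, had values of 5.98 on sgTetOmut, 3.53 on sgTetO and 3.40 on sgIL1RN1~3. The sgTetOmut array stood alone. On sgTetO the set was just above background and on sgIL1RN1~3 just under it. The level on sgTetOmut was 2.46 log2 units above sgTetO, or 5.48-fold, and at least 5.98-fold above sgIL1RN1~3.

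CXCL10, a chemokine that draws activated T cells through the receptor CXCR3, read 6.12 on sgTetOmut, 3.23 on sgTetO and 3.23 on sgIL1RN1~3. The last 2 arrays held the same number to every deposited digit, and neither was above background. CXCL10 was thus at least 6.58-fold higher on sgTetOmut than on either. CXCL11, which binds the same receptor, read 4.53, 2.33 and 2.48 on sgTetOmut, sgTetO and sgIL1RN1~3 with set 210163_at. Its level was above background on sgTetOmut alone, at least 2.18-fold over either other array. The deposited differences were larger, 2.20 and 2.06 log2 units, but their lower ends lie where the arrays give no order. The further CXCL11 set, 211122_s_at, read 2.30, 1.85 and 1.73, not above background on any array.

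CCL5, a chemokine for T cells and monocytes that is also called RANTES, was measured with both of its sets in the same direction. Set 204655_at read 5.36 on sgTetOmut, 3.83 on sgTetO and 3.88 on sgIL1RN1~3, and was above background on all 3 arrays. Its differences were therefore measured on both sides, and sgTetOmut was higher by 2.88-fold over sgTetO and 2.78-fold over sgIL1RN1~3. Set 1405_i_at read 4.40, 1.72 and 1.78, so it was above background on sgTetOmut alone. Its deposited differences of 2.69 and 2.62 log2 units shrank to a bound of 0.9999 against each other array, which falls short of the limit by its last digits. These 2 sets target 1 gene and are no replicates of each other.

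**Figure D1:**
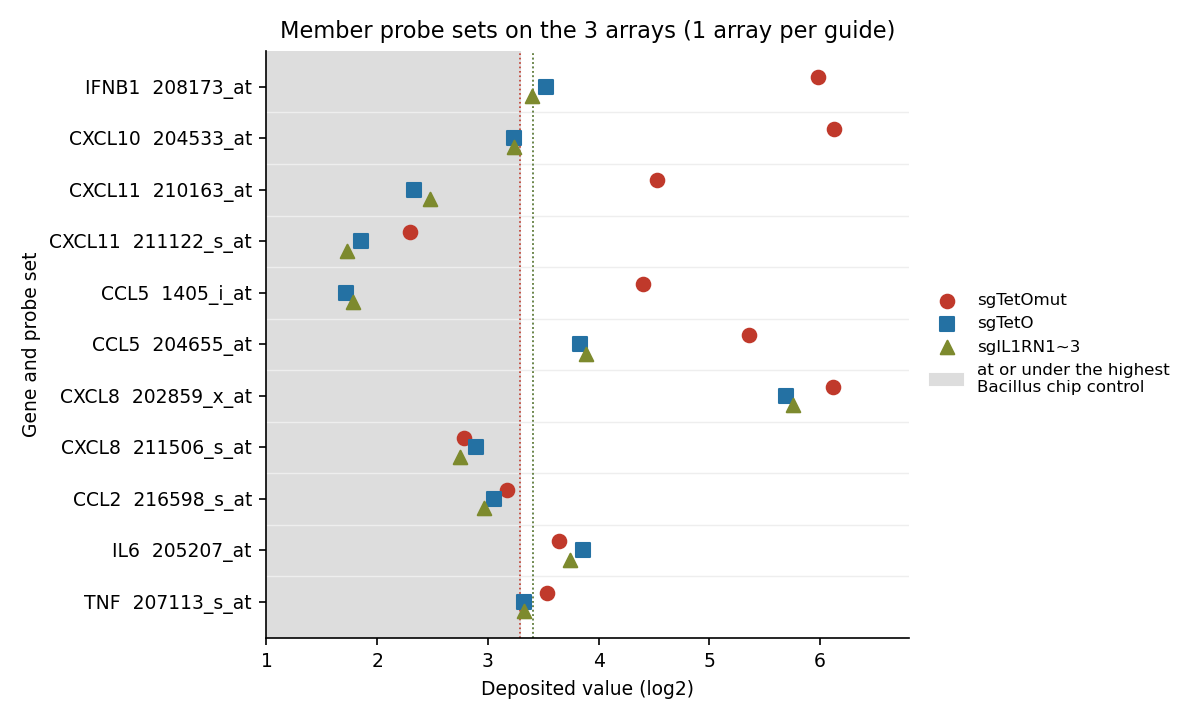
Deposited log2 value (x axis) of the 11 member probe sets (y axis) on the sgTetOmut, sgTetO and sgIL1RN1~3 arrays, 1 point per array, with no error bars because each guide has 1 array. Grey marks values at or under the highest Bacillus set of sgTetOmut (3.29) and dotted lines the level of each array. IFNB1, CXCL10, CXCL11 (210163_at) and both CCL5 sets lie apart on sgTetOmut, while the points of sgTetO and sgIL1RN1~3 lie within 0.15 of each other for every set.

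The upstream DNA of the members that stood apart is shown with that of CXCL8, which did not reach the limit, because it carries the sites through which these genes are known to be induced. RefSeq start sites on GRCh38.p14 gave a promoter for 6 of the 8 members, and none was found for CCL5 and CCL2. Each line gives the 250 bases before the start, 5′ to 3′ in the direction of the gene. IFNB1 lies at chr9:21077943-21078192 on the minus strand, CXCL10 at chr4:76023498-76023747 on the minus strand, CXCL11 at chr4:76036071-76036320 on the minus strand and CXCL8 at chr4:73740319-73740568 on the plus strand. Capitals mark matches, on either strand, to AANNGAAA, the core that IRF proteins bind, and to GGGAAATTCC, a site of the kind NF-kB binds, or its last 9 bases GGAAATTCC.
IFNB1: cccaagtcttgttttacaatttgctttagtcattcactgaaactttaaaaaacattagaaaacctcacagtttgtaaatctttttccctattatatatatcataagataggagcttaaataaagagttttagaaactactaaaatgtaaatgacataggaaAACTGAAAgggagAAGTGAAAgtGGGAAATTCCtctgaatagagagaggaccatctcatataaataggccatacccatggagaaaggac
CXCL10: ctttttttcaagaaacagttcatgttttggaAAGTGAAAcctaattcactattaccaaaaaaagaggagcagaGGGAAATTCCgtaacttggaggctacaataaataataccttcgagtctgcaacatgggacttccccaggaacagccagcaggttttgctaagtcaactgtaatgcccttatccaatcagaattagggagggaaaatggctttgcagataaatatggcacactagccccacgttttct
CXCL11: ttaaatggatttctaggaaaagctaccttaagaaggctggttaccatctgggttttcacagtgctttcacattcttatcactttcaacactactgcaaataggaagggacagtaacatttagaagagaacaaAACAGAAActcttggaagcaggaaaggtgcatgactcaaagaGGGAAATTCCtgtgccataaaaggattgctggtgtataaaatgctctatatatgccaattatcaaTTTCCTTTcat
CXCL8: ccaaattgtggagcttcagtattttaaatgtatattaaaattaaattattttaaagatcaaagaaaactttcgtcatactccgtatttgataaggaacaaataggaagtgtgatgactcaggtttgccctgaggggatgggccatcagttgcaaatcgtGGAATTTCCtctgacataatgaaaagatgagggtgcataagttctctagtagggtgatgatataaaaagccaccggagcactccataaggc

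The longest run of bases shared by the IFNB1, CXCL10 and CXCL11 windows, on either strand, was the 10-base NF-kB site GGGAAATTCC, which was found in 0.148% of 35116 upstream windows of the same length. The match began 66 bases before the start in IFNB1, 177 in CXCL10 and 76 in CXCL11. Each also had the IRF core, present in 20.3% of windows: AACTGAAA and AAGTGAAA in IFNB1, AAGTGAAA in CXCL10, and AACAGAAA with, on the opposite strand, AAAGGAAA in CXCL11. In IFNB1 the IRF matches began 89 and 76 bases before the start, just upstream of the NF-kB site, which is the known arrangement of its virus-inducible enhancer. The core of the interferon-stimulated response element, 2 copies of GAAA with any 2 bases between them, overlaps the IRF core and was present in 3.02% of windows. It was found in CXCL10 alone, as GAAAGTGAAA beginning 221 bases before the start.

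CXCL8, IL6 and TNF held neither GGGAAATTCC nor AANNGAAA in these windows. CXCL8 had GGAATTTCC, the reverse complement of the last 9 bases of the site above, beginning 91 bases before the start, and such a 9-base match occurred in 0.413% of windows. It also had TGACTCA, a match to the AP-1 motif TGANTCA (6.57% of windows), beginning 137 bases before the start, a motif that CXCL11 carried as well. By a looser NF-kB pattern, GGG and CC with any 5 bases between them, found in 54.4% of windows, IL6 had, among other matches, GGGATTTTCC beginning 73 bases before the start and TNF had GGGTTTCTCC beginning 101 bases before it. The pattern TTCNNNGAA, known as GAS and found in 6.57% of windows, occurred in IFNB1 and CXCL11, and the TATA box TATAAA, found in 10.7% of windows, in IFNB1, CXCL11, CXCL8 and TNF. The motifs were chosen after the values were known, and a match describes letters and not a bound site. GGGAAATTCC was defined as the run that IFNB1, CXCL10 and CXCL11 share, so nothing is read from its presence in them.

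**Figure D2:**
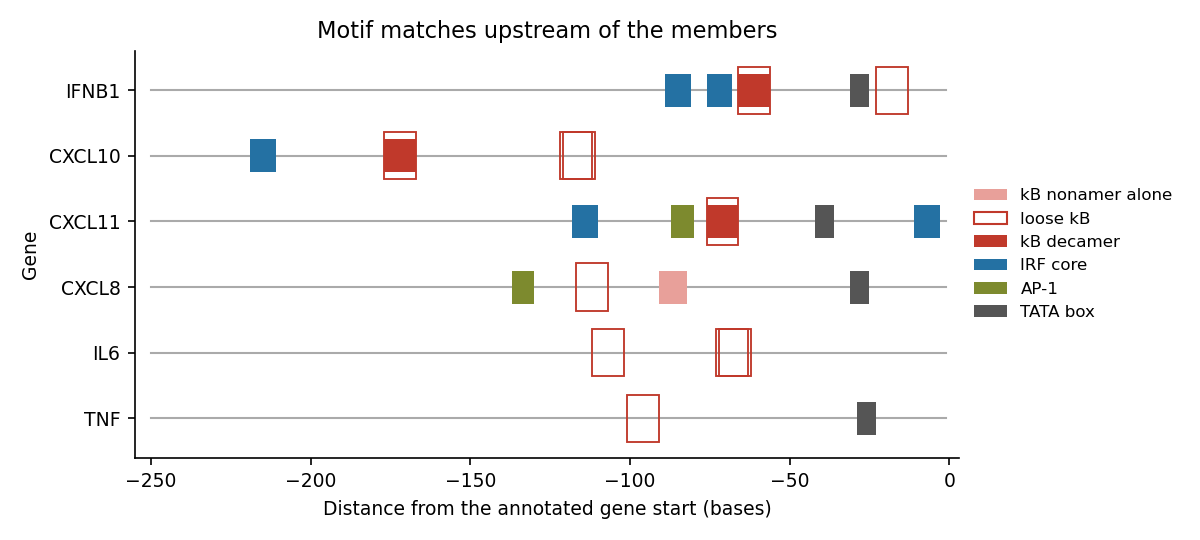
Motif matches in the 250 bases upstream of the 6 members with a promoter, by distance from the annotated start (x axis, bases), 1 line per gene (y axis). Filled boxes are the kB decamer GGGAAATTCC, its last 9 bases alone, the IRF core AANNGAAA, the AP-1 motif TGANTCA and the TATA box TATAAA, and open boxes the looser kB pattern. IFNB1, CXCL10 and CXCL11 carry both the decamer and the IRF core, and CXCL8, IL6 and TNF carry neither. The decamer was taken as the longest run that IFNB1, CXCL10 and CXCL11 share, so its presence in them follows from that choice.

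CXCL8, also called interleukin-8, attracts neutrophils. With set 202859_x_at it read 6.11 on sgTetOmut, 5.69 on sgTetO and 5.76 on sgIL1RN1~3. It was highest on sgTetOmut by 1.34-fold over sgTetO and 1.28-fold over sgIL1RN1~3, under the limit on both. The suffix of this set marks probes that can also match other transcripts. Its other set, 211506_s_at, read 2.78, 2.89 and 2.74 and was not above background on any array.

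CCL2, a chemokine for monocytes, read 3.17 on sgTetOmut, 3.06 on sgTetO and 2.96 on sgIL1RN1~3, not above background on any of them. IL6, the cytokine that drives the acute phase response, read 3.64, 3.86 and 3.74 in the same order. It was the 1 member gene not highest on sgTetOmut as deposited, where it was 0.22 log2 units under sgTetO and 0.10 under sgIL1RN1~3. Each of its values lay within 0.5 log2 units of background. TNF, a cytokine that activates NF-kB in the cells it reaches, read 3.53 on sgTetOmut and 3.32 on both other arrays. It was above background on sgTetOmut alone, by a bound of at least 1.09-fold over the others.

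**Figure D3:**
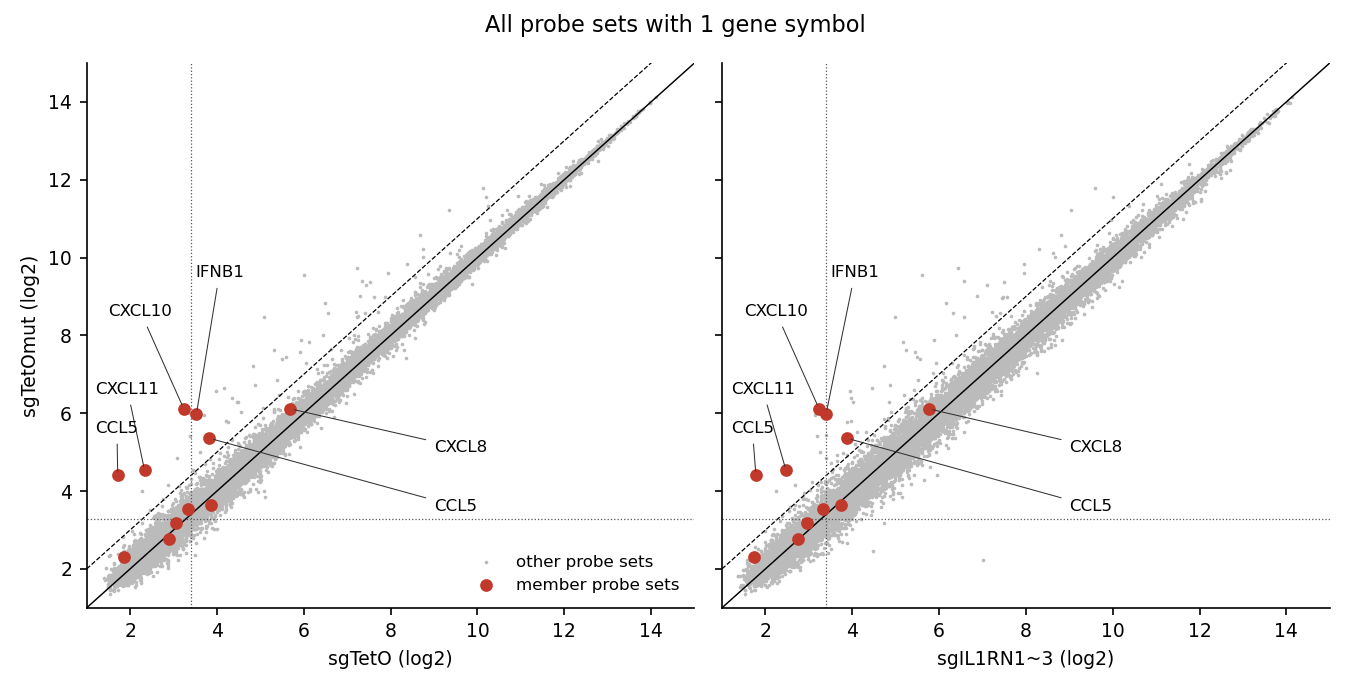
Log2 value on sgTetOmut (y axis) against sgTetO (left, x axis) and sgIL1RN1~3 (right, x axis) for all 19070 probe sets with 1 gene symbol (grey) and the 11 member sets (red), with labels on the 6 that exceed 4.3 on sgTetOmut. Solid lines mark equal values, dashed lines 2-fold higher on sgTetOmut and dotted lines the highest Bacillus set. IFNB1, CXCL10, CXCL11 and CCL5 lie above the dashed line in both panels and CXCL8 under it.

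The list of other interferons held 13 measured genes of 18, and all 13 sets, among them IFNA5, IFNA17, IFNA10 and IFNG, were not above background on any array, so they gave no difference. Of 20 other chemokines measured, 7 were above background on at least 1 array, and of their sets 0 were 2-fold apart in any pair of arrays, a count near the 0.299% of all sets lower with sgTetO. CXCL12, which acts on CXCR4, read 5.88, 5.88 and 5.76 on sgTetOmut, sgTetO and sgIL1RN1~3. CXCL2 read 5.94, 5.94 and 5.52, and CXCL3, like it a neutrophil chemokine, 5.87, 5.87 and 5.59. CXCL9, picked here after its values were seen because it is the third ligand of CXCR3, read 2.49, 2.08 and 2.34 and was not above background.

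Of 15 other inflammatory cytokines measured, 9 were above background on at least 1 array. Between sgTetO and sgTetOmut 0 were 2-fold apart, a count near the 0.299% of all sets lower with sgTetO. With sgIL1RN1~3, 1 was lower than with sgTetOmut, beside 0.372% of all sets. This gene was IL15, which sustains T and NK cells, at 4.72 on sgTetOmut, 3.91 on sgTetO and 3.51 on sgIL1RN1~3. Its further set read 3.17, 2.71 and 2.74, not above background. LIF read 4.33, 4.33 and 4.67, and CSF1 4.53, 4.34 and 4.34. IL1B was not above background with either of its sets.

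Of the receptors through which the members act, 14 of 16 were measured and 7 of these were above background on at least 1 array. In these 7 genes 0 sets were 2-fold apart in any pair of arrays, a count near the 0.299% of all sets lower with sgTetO. IFNAR2, a chain of the interferon alpha and beta receptor, read 8.72, 8.54 and 8.49 on sgTetOmut, sgTetO and sgIL1RN1~3 with 1 set and 6.46, 6.99 and 6.92 with the other, so its sets differed in direction. IL6ST, the signal-transducing chain of the IL-6 receptor, read 10.7, 10.7 and 10.9, and TNFRSF1A, the main TNF receptor, 7.26, 7.26 and 7.54. The IL-6 binding chain, IL6R, and the chemokine receptors CCR1, CCR2, CCR4, CXCR1 and CXCR2 were not above background on any array.

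Of all sets, 0.299% were at least 2-fold lower than on sgTetOmut with sgTetO and 0.372% with sgIL1RN1~3. Of 18 measured genes that lead to IFNB1 induction, 3 fell at least 2-fold short of sgTetOmut with sgTetO and 3 did so with sgIL1RN1~3. These were the RNA sensors IFIH1 (9.39, 7.35 and 6.58), RIGI (10.2, 8.75 and 8.29) and TLR3 (6.47, 5.43 and 5.19), each itself an interferon-inducible gene, and each highest on sgTetOmut. The coactivators EP300 (11.5, 11.5 and 11.5) and CREBBP (11.3, 11.3 and 11.3) and the transcription factor ATF2 (11.5, 11.6 and 11.5) differed by 0.11 log2 units at most with their brightest sets. IRF3, which is made constitutively, read 7.60, 7.51 and 7.79, and IRF7, which interferon induces, 4.22, 3.66 and 3.38. The IRF7 value on sgIL1RN1~3 was not above the background of 3.40 there, so its difference from sgTetOmut is a bound. IRF3 was under the limit, and so was IRF7 with sgTetO, while the IRF7 bound with sgIL1RN1~3 did not reach it. Both are named here after their values were seen, as the IRF proteins of the IFNB1 promoter.

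The interferon response genes, which interferon can induce, were chosen from common knowledge with earlier results of these arrays known. Whether secreted interferon acted in these cells was not tested. Of 25 measured, 23 lay at least 2-fold under sgTetOmut with sgTetO and 23 with sgIL1RN1~3, beside 0.299% and 0.372% of all sets. The median deposited difference of their 30 sets was -1.84 and -2.08 log2 units, beside -0.01 and 0.00 over all 19070 sets. IFIT1, which binds foreign RNA, read 11.8, 10.1 and 9.59, and RSAD2, also called viperin, 9.55, 6.00 and 5.61. The median of the 11 member sets was -0.44 and -0.56. Both are the values of CXCL11 set 211122_s_at, which was not above background on any array. With 1 set per gene the median was -0.98 and -0.91 for the 8 members, and -1.88 and -1.99 for the interferon response.

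Of 17 NF-kB targets measured, 13 were above background on at least 1 array and 0 were 2-fold apart in any pair of arrays. This count is near the shares of all sets, 0.299% lower with sgTetO and 0.372% lower with sgIL1RN1~3 than with sgTetOmut. Of their 29 sets, 12 were at background on both sgTetO and sgTetOmut. The median of the 29 was -0.07 for sgTetO and 0.02 for sgIL1RN1~3 minus sgTetOmut. IER3 read 7.76, 7.36 and 7.89, CD83 7.17, 6.86 and 6.92, and PTGS2, the inducible cyclooxygenase, 6.88, 6.66 and 6.99. Of 12 measured genes of the IL-6 and STAT3 response, 10 were above background on at least 1 array. Of these 12, 0 were 2-fold apart, a count near the same shares. SOCS2 read 8.61, 8.60 and 8.44, CEBPB 8.21 on each array and PIM1 7.78, 7.76 and 7.87. The median of this list was 0.00 in both comparisons.

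**Figure D4:**
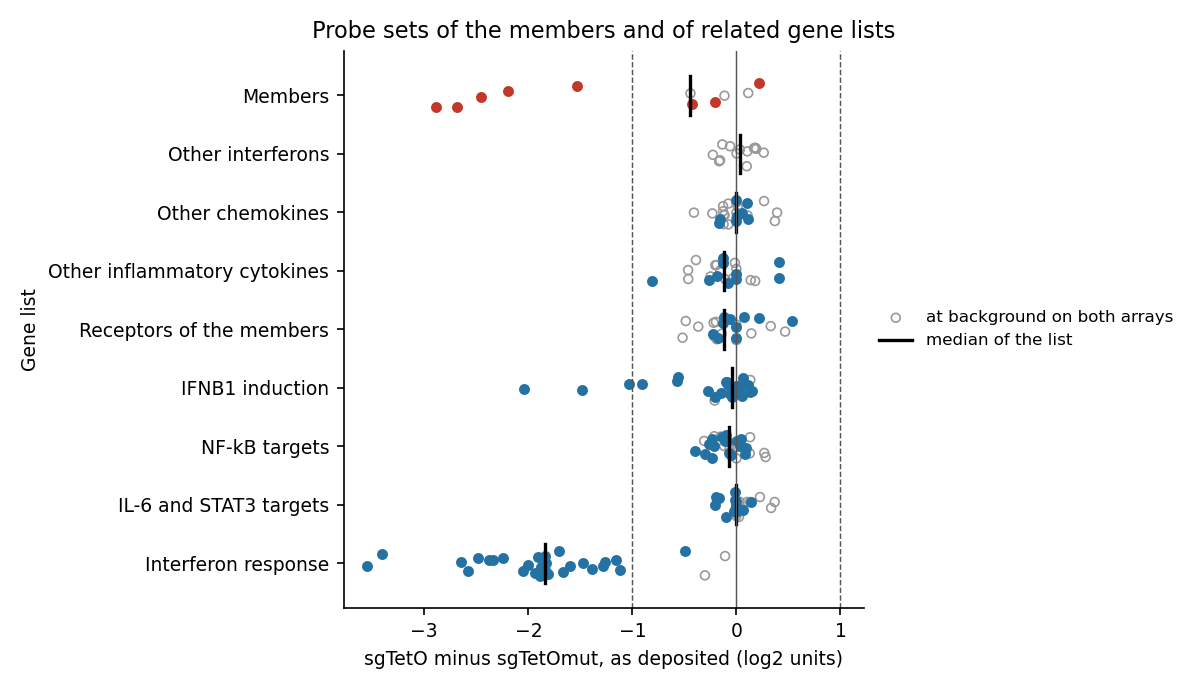
Deposited difference sgTetO minus sgTetOmut (x axis, log2 units) of each probe set in the member list and in 8 related gene lists (y axis), with points spread vertically for legibility and 1 array per guide. Open circles are sets at background on both arrays, black bars list medians and dashed lines the 2-fold limit. Median differences were -0.44 for the members and -1.84 for the interferon response. The member median is the value of CXCL11 set 211122_s_at, which was at background on both arrays. No set of the other interferons, other chemokines, receptors, NF-kB targets or IL-6 and STAT3 targets lies past the limit.

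The genes nearest to the members in the differences of sgTetO and sgIL1RN1~3 from sgTetOmut were sought among 9305 others above background on sgTetOmut, by distance in log2 units over these 3 arrays. For IFNB1 they were OASL, an interferon-induced relative of the OAS enzymes, at a distance of 0.13, MX2, an antiviral GTPase, at 0.14 and IFIT3 at 0.14. For CXCL10 they were IFIT3 at 0.16, MX2 at 0.18 and IFNB1 itself at 0.30. CXCL11 lay nearest to IRF9, a transcription factor of the interferon response, at 0.04, then TAP1, a peptide transporter, at 0.15 and TLR3 at 0.17. CCL5 lay nearest to SAMD9 at 0.14, IFITM3, which has near-identical paralogs, at 0.16 and USP18 at 0.17. The differences of CXCL10, CXCL11 and MX2, and that of IFNB1 with sgIL1RN1~3, are bounds, so the distances that use them are between bounds or from a bound and are not measured. Neighbours were sought only for members past the limit, in the same differences by which these members stood apart. Of 19070 sets, 57 were at least 2-fold lower than sgTetOmut with sgTetO and 71 with sgIL1RN1~3. Interferon response sets made up 26 of the 57 and 26 of the 71, so nothing is read from which genes lay nearest.

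The target gene and cell identity were checked on the same arrays. IL1RN read 7.01 on sgIL1RN1~3 and 2.23 and 2.28 on sgTetOmut and sgTetO with set 212657_s_at, and its other 4 sets were under 2-fold apart or at background. All 9 measured HEK293T markers were above background on at least 1 array, with VIM at 9.88, 9.87 and 10.4 and NEFL at 10.1, 10.2 and 10.4. Of the monocyte and macrophage markers 3 of 12 sets were above background, each on all 3 arrays. These were sets of ITGAM (5.98, 5.99 and 6.09 on sgTetOmut, sgTetO and sgIL1RN1~3), CD14 (4.23, 3.83 and 3.89) and AIF1 (3.61, 3.62 and 3.62). PTPRC, CSF1R and LYZ were not above background on any array. The summed linear value of this list was 137 to 148 over the 3 arrays. T and NK cell markers had 1 of 6 sets above background (GNLY, not on sgTetOmut) and a sum of 41.6 to 47.7, endothelial markers 2 of 8 sets with a sum of 57.5 to 62.8, and fibroblast markers 8 of 18 with a sum of 487 to 508. The fibroblast sets above background were of 4 of the 6 genes measured. Among them were COL1A1 (7.08, 7.14 and 7.30 on sgTetOmut, sgTetO and sgIL1RN1~3), COL3A1 (7.16, 7.06 and 7.16) and LUM (6.43, 6.51 and 6.42). In each of the 4 lists of other cell types 0 sets were 2-fold apart in any pair of arrays, a count near the 0.299% of all sets lower with sgTetO. The 5′ chip control of ACTB read 7.61, 7.48 and 8.43 and its 3′ control 13.3, 13.3 and 13.4 on sgTetOmut, sgTetO and sgIL1RN1~3. The 5′ control was highest on sgIL1RN1~3, and its part in the member values was not tested.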

How the data were processed

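RNA of 3 HEK293T samples was measured on 1 single-channel array each. The authors deposited log2 values of 22277 probe sets, made with affy per the submitters' processing notes, and no version, background correction, normalization or summary method is given in the sources used here. The median over named sets was 5.49 on sgTetOmut, 5.46 on sgTetO and 5.50 on sgIL1RN1~3. The number of arrays limits the precision.

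Of the probe sets, 19070 had 1 gene symbol in GEO's platform annotation, 1043 had several and 2164 had none listed, and only the first were named. The members and gene lists were chosen with earlier results of these data known. Differences were taken after values under the highest of 27 Bacillus sets had been raised to it, with a limit of 2-fold. A pair with both values under it has no difference. Named genes were all member sets and the 3 nearest neighbours of each member past the limit. List genes were drawn from the 3 of highest mean and up to 3 further ones of largest difference past 2-fold, and not all of these are given. Some genes, among them IFNG, CXCL9, IL1B, IL6R, the chemokine receptors, IRF3, IRF7, PTPRC, CSF1R and LYZ, were named outside this rule. Alternatives covered scaling (limma 3.58.1 in R 4.3.3), background level, offset and limits. Python 3.11.15, numpy 2.4.6, pandas 2.3.3 and matplotlib 3.10.9 were used.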

Additional observations from a re-analysis of the deposited data

How the results depend on the processing

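The count of member sets at least 2-fold lower than on sgTetOmut, 4 for sgTetO and 4 for sgIL1RN1~3, became 2 and 2 with 16 added to the linear values, 2 and 2 at a 3-fold limit, and 2 and 2 with sets kept only where the brighter value was at least the median over named sets. These 3 settings left IFNB1 and CXCL10 past the limit and CXCL11 and CCL5 short of it or, in the last of them, filtered out, and adding 16 shrinks differences of low values by construction. Under the other alternatives the count was 4 or 5, the fifth being CCL5 set 1405_i_at. The count of 0 between sgIL1RN1~3 and sgTetO held under each alternative run. Member sets above background rested on the Bacillus set of highest value. At the 95th percentile of the Bacillus sets they went from 8 to 10 on sgTetOmut, from 4 to 8 on sgTetO and from 3 to 8 on sgIL1RN1~3. With the median of the Bacillus sets as background they were 11, 9 and 9 in the same order. Quantile and cyclic loess scaling moved the median of all sets by under 0.1 log2 units. Over the scaling, background, floor and offset alternatives the difference of sgTetO from sgTetOmut had a size of 1.53 to 2.46 log2 units for IFNB1, 1.69 to 2.89 for CXCL10, 0.92 to 1.53 for CCL5 set 204655_at and 0.56 to 2.20 for CXCL11 set 210163_at. No paired analysis was possible because each guide has 1 array and the labels carry no replicate number.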

Other observations

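The 10 bases GGGAAATTCC shared by IFNB1, CXCL10 and CXCL11 were looked up upstream of all measured genes, a search chosen after the values were seen. Of 9563 measured genes with a promoter, 24 carried them, and 4 of these 24 lay at least 2-fold under sgTetOmut with sgTetO, beside 0.387% of the 9563. The fourth was OAS3, an enzyme activated by double-stranded RNA, at 8.57 on sgTetOmut, 6.56 on sgTetO and 6.33 on sgIL1RN1~3. Without the 3 members this is 1 of 21 genes. Of the 24 genes, 6 also had the IRF core AANNGAAA, namely these 4, MAP3K8 (3.98, 3.93 and 3.61) and PTPN2 (8.04, 8.17 and 7.78). The neutrophil chemokines CXCL1 (4.36, 4.19 and 4.08), CXCL2 and CXCL3 carried the 10 bases with no IRF core in the window, and none of them was 2-fold apart in any pair of arrays. Of the 2071 genes with the IRF core, 32 were lower (1.55%), and of the 341 with 2 copies of GAAA spaced by 2 bases, 23 were (6.74%). The members were left in these counts, IFNB1, CXCL10 and CXCL11 among the 32 and CXCL10 among the 23. They were picked with these values known, so nothing is read from the motif counts, and a part of any motif in the differences was not tested.

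Deposited values recurred exactly between different probe sets. On sgTetOmut 27.2% of sets held a value that at least 1 other set also held, on sgTetO 27.2% and on sgIL1RN1~3 23.5%, and up to 188 sets held 1 value on sgTetOmut. The IFNB1 value of 5.98 on sgTetOmut was held by 11 other sets and its 3.40 on sgIL1RN1~3 by 93, while its 3.53 on sgTetO was held by 0. The IL6 values were shared with 77, 61 and 83 other sets on sgTetOmut, sgTetO and sgIL1RN1~3, and the TNF value of 3.53 with 65. Those of CXCL10 and of both CCL5 sets were shared with 0 on each array. CXCL10 and TNF did repeat between arrays, each with the same value on sgTetO and sgIL1RN1~3. Between these arrays 6.26% of all named sets were equal, and 12.4% of those at background on both. Repeats within an array were more frequent at low values, on sgTetOmut 41.8% of sets at background and 12.6% of those at or above 7. The processing that gave such repeats is not given in the sources used here, and their part in the member values was not tested.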
